A study of Mus musculus with 10 samples.

Results

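RNA of 9 genes of the chemokine system was described in 10 CT26 tumors: the conventional receptors Ccr1, Ccr2, Ccr6, Cx3cr1 and Cxcr4, the atypical receptors Ackr3 and Ccrl2, and the ligands Cx3cl1 and Cxcl12. They were taken by gene name from the 36009 rows of the count table, and 9 of 9 were present and passed the filter on low counts. CT26 is a mouse colorectal carcinoma line, grown here subcutaneously in female BALB/c mice labelled WT. The 6 responders were tumors of mice whose disease regressed completely after a poly(I:C) hydrogel, a slow-release form of a synthetic double-stranded RNA, was placed on the residual tumor, and the 4 non-responders came from mice whose tumors grew without delay. Each library was made from the piece resected before the hydrogel was placed, so every tumor was untreated when sampled; all tumors came from the same line, and the methods give an age of 8 to 12 weeks for all mice of the study, with none for the individual animals. The comparison asks which transcripts differed before treatment between tumors that later did or did not respond.

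Chemokines are small proteins that steer leukocyte migration through G protein-coupled receptors. CCR2 and its ligand CCL2 bring classical monocytes out of the bone marrow and into inflamed tissue, CCR1 is carried by monocytes, macrophages and neutrophils, and CX3CR1 marks patrolling monocytes and many tissue macrophages and binds fractalkine (CX3CL1), a ligand that is made tethered to the membrane and shed by the proteases ADAM10 and ADAM17. CXCL12, made mainly by stromal and endothelial cells, retains and guides hematopoietic cells through CXCR4, while the atypical receptor ACKR3 takes up CXCL12 without classical G protein signaling. CCR6 is the receptor of CCL20 on lymphocyte and dendritic cell subsets, and CCRL2 presents chemerin, the product of Rarres2, to the signaling receptor CMKLR1.

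Libraries held 29065126 to 38042544 estimated counts in responders and 23374649 to 32986456 in non-responders. Across the 16041 genes tested, 1293 passed an adjusted p of 0.05 in edgeR's quasi-likelihood test, which is 8.06% of genes, with 4.71% higher and 3.35% lower in responders. All responders lay above all non-responders in 5.84% of genes and below them in 4.55%. Of the colorectal epithelium markers, Epcam, Vil1, Krt8, Krt18 and Lgr5 were below the filter on low counts in both groups, and Krt20 was measured at 29.1 ± 9.80 CPM (counts per 1000000 of the TMM-scaled library; SD, n = 6) in responders and 52.9 ± 18.5 (n = 4) in non-responders (log2 fold change -0.86, edgeR adjusted p = 0.0834). Cdx2 was at 0.56 ± 0.20 and 1.09 ± 0.43 CPM (-0.95, edgeR adjusted p = 0.0784), so both tested markers had lower estimates at an unadjusted p under 0.05, and DESeq2 called 1. Ptprc, which encodes the pan-leukocyte antigen CD45, was higher in responders (380.5 ± 63.1 against 250.6 ± 55.6 CPM, edgeR adjusted p = 0.0413), and 5 of 8 macrophage markers were called higher, with summed levels of 2397 to 3570 CPM against 1797 to 2337 CPM. In bulk tissue, fewer cells of a type and less RNA per cell cannot be told apart.

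Windows of 250 bases upstream of the annotated start are shown for Cxcl12, for its receptor Cxcr4 and for Ccr1, because these windows of the ligand with the largest change, its receptor and a called myeloid receptor lie outside all annotated exons. They were taken from RefSeq on GRCm38.p6 and are printed 5′ to 3′ on the strand of the gene, with capitals marking any match to 7 motifs searched on both strands.
Cxcl12 (chr6:117168285-117168534, plus strand): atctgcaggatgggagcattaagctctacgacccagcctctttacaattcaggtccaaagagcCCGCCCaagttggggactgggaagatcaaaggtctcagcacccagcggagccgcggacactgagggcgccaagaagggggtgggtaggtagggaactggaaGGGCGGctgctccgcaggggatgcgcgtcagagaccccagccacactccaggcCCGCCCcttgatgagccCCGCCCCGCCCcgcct
Cxcr4 (chr1:128592300-128592549, minus strand): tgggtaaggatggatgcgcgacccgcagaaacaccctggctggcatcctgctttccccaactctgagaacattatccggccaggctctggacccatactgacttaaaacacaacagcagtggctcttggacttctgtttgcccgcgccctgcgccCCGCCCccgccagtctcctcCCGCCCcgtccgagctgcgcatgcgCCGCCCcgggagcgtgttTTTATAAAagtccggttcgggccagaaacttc
Ccr1 (chr9:123968693-123968942, minus strand): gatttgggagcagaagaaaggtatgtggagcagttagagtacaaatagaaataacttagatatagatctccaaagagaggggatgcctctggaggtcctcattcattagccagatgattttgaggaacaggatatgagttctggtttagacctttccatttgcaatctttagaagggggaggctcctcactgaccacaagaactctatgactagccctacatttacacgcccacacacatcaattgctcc
The motifs were the TATA box (TATAAA), the GC box bound by SP-family factors (GGGCGG), the core of the hypoxia element (ACGTG), AP-1 (TGANTCA), the STAT site (TTCNNNGAA), an interferon element core (GAAANNGAA) and the PU.1 site (GAGGAAG). The Cxcl12 window held 5 GC boxes, of which the last pair shared a base, and 14 CpG dinucleotides. At least 5 GC boxes were found in 1.93% of the 32851 windows of that length, and at least 1 in 32.7%. The Cxcr4 window held 3 GC boxes, as at least that many did in 8.47% of windows, a pair of overlapping TATA matches on opposite strands and 19 CpG dinucleotides. In contrast, the Ccr1 window had no match to any of these letters and 1 CpG dinucleotide, against a median of 6 over all windows. TATA matches occurred in 12.4% of windows. The remaining motifs were matched in 16.6% (hypoxia core), 6.75% (AP-1), 7.02% (STAT), 7.13% (interferon core) and 10.6% (PU.1) of windows. A match is a description of the letters and not evidence of binding.

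Of the 9 genes, 3 were called higher in responders (Cxcl12, Cx3cl1 and Ccr1), beside a background of 4.71% of genes called in that direction, and 0 were called lower by edgeR, DESeq2 or limma-voom, with 0 lower at an unadjusted p under 0.05. The same 3 genes had all responders above all non-responders, beside a background of 5.84%. Estimates were positive for 8 of 9 genes, and the median log2 fold change was 0.35, against -0.01 over all genes tested. Both ligands and 1 of the 7 receptors were thus called. This split follows the threshold and not the size of the estimates. Ccr2 was not called at a log2 fold change of 0.61, above the called Cx3cl1 (0.36) and Ccr1 (0.35), nor was Ackr3 at 0.35.

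**Figure D1:**
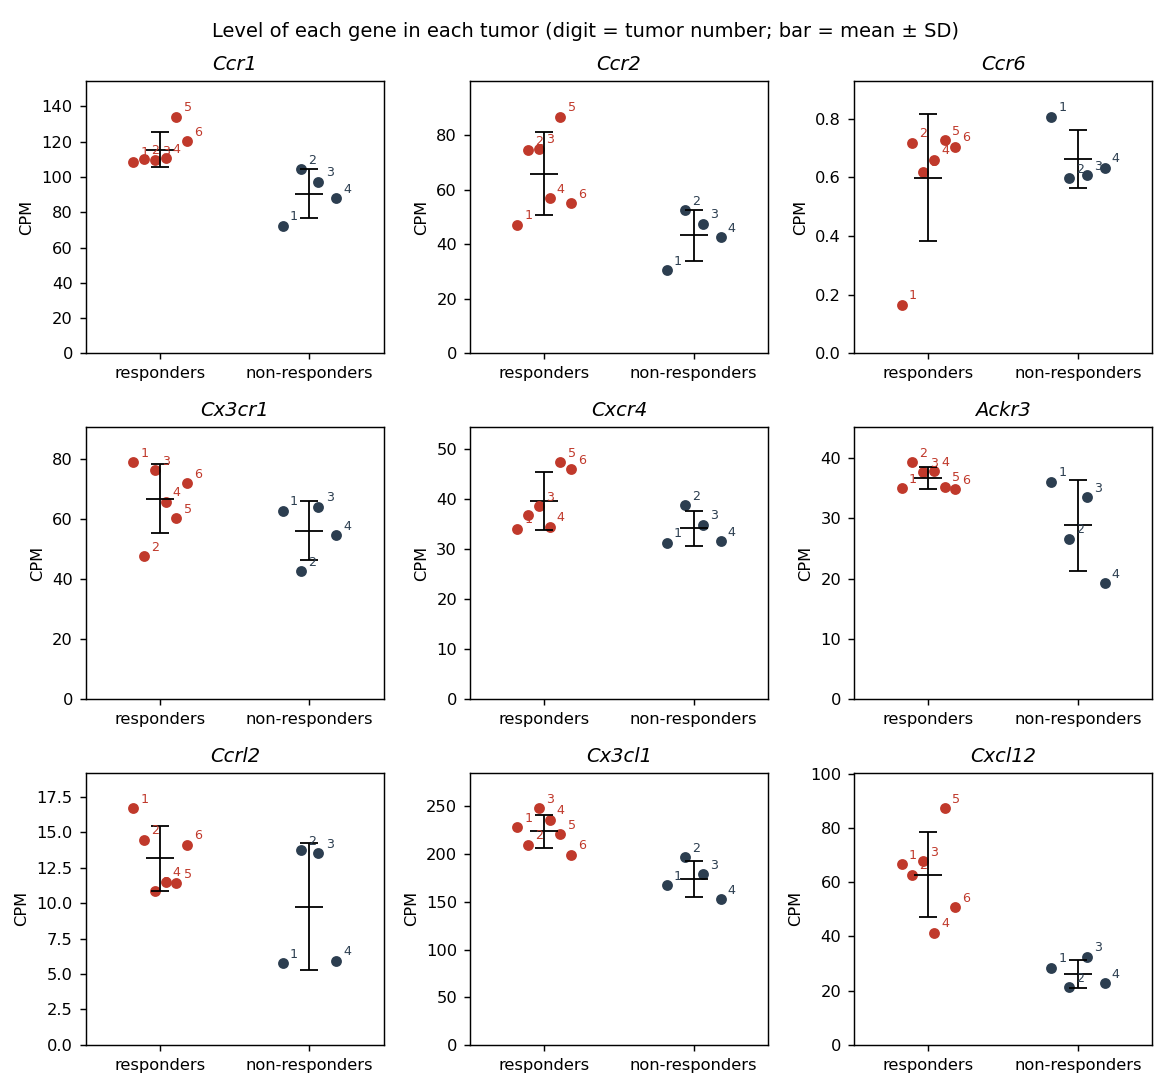
CPM of each gene (vertical axis, from 0) in 6 responders (red) and 4 non-responders (dark), with digits for the tumor number within its group and bars for mean ± SD. The groups are separate for Ccr1, Cx3cl1 and Cxcl12 and overlap for the other 6 genes; responder 1 lies at 0.17 CPM for Ccr6.

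Cxcl12 (ENSMUSG00000061353, chr6:117168535-117181367, plus strand; GRCm38 here and below) showed the largest difference of the 9. Responders ranged from 41.4 to 87.2 CPM with a median of 64.7, while non-responders 1 to 4 were at 28.4, 21.4, 32.5 and 22.7 CPM. The lowest responder, number 4, was above the highest non-responder, number 3. Mean levels were 62.7 ± 15.7 CPM (SD, n = 6) against 26.2 ± 5.16 CPM (n = 4), a 2.40-fold difference (edgeR adjusted p = 0.0207, log2 fold change 1.26 ± 0.20 SE). Ordered from the most positive log2 fold change down, Cxcl12 ranked 184 among the 16041 genes tested. When tumors were left out in turn, the log2 fold change stayed between 1.14 and 1.38 and the call was kept in 7 of 10 fits, and it was lost without responder 3 (edgeR adjusted p = 0.0566), non-responder 1 (0.0529) or non-responder 4 (0.0584).

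Markers of stromal cells, the known source of CXCL12, were set beside it. Of the 5 fibroblast markers (Pdgfra, Col1a1, Dcn, Lum and Dpt) 0 were called by edgeR, DESeq2 or limma-voom and 0 were at an unadjusted p under 0.05, with summed levels of 1844 to 2039 CPM in responders and 1575 to 2306 CPM in non-responders. The same counts of 0 held for the 5 endothelial markers, at 86.1 to 142 against 68.8 to 104 CPM, although all 5 estimates were positive (median log2 fold change 0.15). Among the pericyte and smooth muscle markers, Pdgfrb, the receptor of platelet-derived growth factor B, fell in responders (log2 fold change -0.58, edgeR adjusted p = 0.0266), while Acta2, the smooth muscle actin gene, had an estimate of 0.97 that DESeq2 called and edgeR did not (edgeR adjusted p = 0.0514), and the list summed to 268 to 332 against 334 to 445 CPM. All 4 adipocyte markers tested had positive estimates at an unadjusted p under 0.05; edgeR and limma-voom called 0 of them and DESeq2 called 4, with summed levels of 15.6 to 52.1 against 8.54 to 19.2 CPM. Of 5 skeletal muscle markers, 2 (Acta1 and Ckm) rose, 5 were higher at an unadjusted p under 0.05, and DESeq2 called 4 and limma-voom 1, with sums of 348 to 1122 against 308 to 402 CPM. With the mean of the adipocyte markers as a covariate, the log2 fold change of Cxcl12 was 1.44 (edgeR unadjusted p = 4.6e-04, adjusted p = 0.400). That adjusted p was the lowest of any gene in this fit, in which 0 genes passed, but it was tied and does not single out Cxcl12. Cx3cr1, Cx3cl1 and Ackr3 had the same adjusted p, at edgeR unadjusted p of 0.0024, 0.0062 and 0.0107. The part of muscle in the result was not tested.

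Cx3cl1 (ENSMUSG00000031778, chr8:94772009-94782427, plus strand) had the highest counts of the 9 genes. Responders ranged from 199 to 248 CPM with a median of 224, and the 4 non-responders were at 167, 197, 179 and 153 CPM. The groups were separate, although responder 6 and non-responder 2 differed by little. The mean was 224 ± 17.8 CPM against 174 ± 18.6 CPM (edgeR adjusted p = 0.0306, log2 fold change 0.36 ± 0.08 SE). The estimate stayed between 0.31 and 0.43 when a tumor was left out, and the call was kept in 5 of 10 fits. It was lost without responder 2 (0.0516), responder 3 (0.0641), non-responder 1 (0.0736), non-responder 3 (0.0547) or non-responder 4 (0.0816, each an edgeR adjusted p). Its window upstream of the RefSeq start is not shown, since 171 of its 250 bases lie in annotated exons.

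Ccr1 (ENSMUSG00000025804, chr9:123962124-123968692, minus strand) was at 109 to 134 CPM in responders, with a median of 110, and at 72.3, 104, 97.3 and 88.1 CPM in non-responders. Responders 1 to 4 lay close together between 109 and 111 CPM, just above non-responder 2. Means were 116 ± 10.1 CPM and 90.5 ± 13.9 CPM (edgeR adjusted p = 0.0481, log2 fold change 0.35 ± 0.10 SE). This call was kept when responder 4 (0.0490) or non-responder 2 (0.0268) was left out and lost in the other 8 fits, with edgeR adjusted p between 0.0641 and 0.114. With Ptprc or the macrophage markers as a covariate, the log2 fold change of Ccr1 was 0.03 and 0.01. Ccr1 shared 0.64% of its 31-base words with other genes, mostly with Ccr3.

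Ccr2 (ENSMUSG00000049103, chr9:124101950-124113557, plus strand) had the second largest estimate and did not pass the test. It was at 47.2 to 86.9 CPM in responders, with a median of 65.8, and at 30.5, 52.5, 47.5 and 42.6 CPM in non-responders. Responder 1 lay within the non-responder range and the other 5 lay above it. The estimate on the log2 scale was 0.61 ± 0.19 (SE) at an edgeR adjusted p of 0.0638, with means of 66.0 ± 15.1 and 43.3 ± 9.43 CPM. It passed under DESeq2 (adjusted p = 0.0108) and when non-responder 2 was left out (edgeR adjusted p = 0.0473). Of its 31-base words, 3.48% also occur in other genes, so a small part of its reads could be split between genes.

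Cx3cr1 (ENSMUSG00000052336, chr9:119901616-120069879, minus strand), the receptor of CX3CL1, was at 47.7 to 79.0 CPM in responders, with a median of 68.9, and at 62.9, 42.7, 64.2 and 54.6 CPM in non-responders. The lowest values came from responder 2 and non-responder 2, whose shared number pairs nothing, and the ranges overlapped over most of their length. Means were 66.9 ± 11.6 and 56.1 ± 9.86 CPM, and the difference did not pass (edgeR adjusted p = 0.276, log2 fold change 0.25 ± 0.15 SE). An antisense gene, Gm33858, shares 78 exonic bases with Cx3cr1, and the strand setting was not stated, so reads of that stretch cannot be assigned. In all, 3.28% of the 31-base words of Cx3cr1 also occur in other genes, 1.10% in Gm33858.

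Cxcr4 (ENSMUSG00000045382, chr1:128588199-128592293, minus strand) was at 34.1 to 47.4 CPM in responders, with a median of 37.7, and at 31.3, 38.8, 34.9 and 31.6 CPM in non-responders. Responders 5 and 6 were above every non-responder and the other 4 were not. The difference did not pass (edgeR adjusted p = 0.212, log2 fold change 0.21 ± 0.11 SE). Ackr3 (ENSMUSG00000044337, chr1:90203980-90216751, plus strand), the second CXCL12 receptor, was at 34.9 to 39.3 CPM in responders, with a median of 36.5, and at 36.1, 26.6, 33.6 and 19.2 CPM in non-responders. Levels were even among responders, with a coefficient of variation of 5.05%, and spread among non-responders, at 26.3%, where tumors 2 and 4 were low. Ackr3 did not pass the test (log2 fold change 0.35 ± 0.14, edgeR adjusted p = 0.131).

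Ccrl2 (ENSMUSG00000043953, chr9:111054486-111057519, minus strand) fell into separate levels within the non-responders. Its values there were 5.77, 13.7, 13.5 and 5.94 CPM, against 10.8 to 16.7 CPM in responders with a median of 12.8. Non-responders 2 and 3 were thus within the responder range, and non-responders 1 and 4 were below it. Means of 13.2 ± 2.30 and 9.74 ± 4.49 CPM did not differ beyond this spread (edgeR adjusted p = 0.284, log2 fold change 0.44 ± 0.26 SE). Ccr6 (ENSMUSG00000040899, chr17:8236043-8257141, plus strand) was close to the lower limit of the filter, with 5 to 26.6 estimated counts per tumor. It was at 0.17 to 0.73 CPM in responders, with a median of 0.68, and at 0.81, 0.60, 0.61 and 0.63 CPM in non-responders. A difference was not detectable at this depth (log2 fold change -0.13 ± 0.32, edgeR adjusted p = 0.824), and the estimate turned to 0.06 without responder 1.

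Levels were compared between genes as CPM per kilobase of exon, averaged over the 10 tumors. Cx3cl1 was highest, at 51.9 ± 7.85 (SD, n = 10), followed by Ccr1 at 37.3 ± 5.999. Next was Cxcr4 at 20.7 ± 3.05, and then came Cx3cr1 at 13.9 ± 2.61, Ackr3 at 10.02 ± 1.82 and Ccr2 at 8.42 ± 2.54. Cxcl12 followed at 5.89 ± 2.74, Ccrl2 at 4.54 ± 1.38 and Ccr6 at 0.27 ± 0.07, all as CPM per kilobase. Each gene overlapped in range with the next in this order, with the exception of Ccrl2 and Ccr6, whose ranges were separate. The order was the same when the longest transcript gave the length. Taken by group, it was kept in responders, and in non-responders Cxcl12 (3.21 ± 0.63 CPM per kilobase of exon, n = 4) came below Ccrl2 (3.75 ± 1.73), within the spread of both. With the longest transcript as the length, Cxcl12 stayed above Ccrl2 in non-responders (4.66 ± 0.92 against 3.96 ± 1.83).

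**Figure D2:**
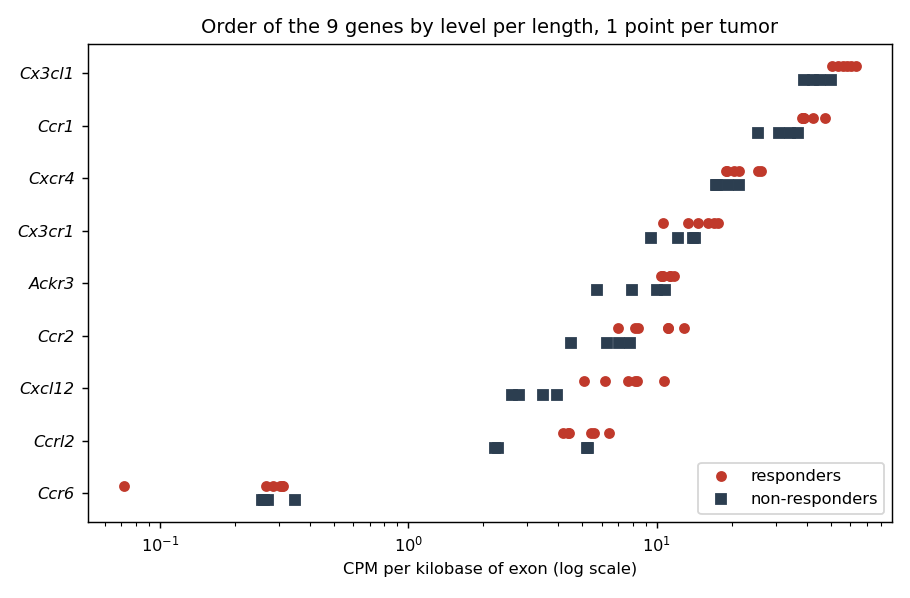
CPM per kilobase of exon (horizontal axis, log scale) of the 9 genes, 1 point per tumor, with responders as red circles and non-responders as dark squares. Genes are ordered by their mean, from 51.9 for Cx3cl1 to 0.27 for Ccr6, which lies apart from the rest.

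Within a tumor, the CPM of Cxcl12 relative to that of its receptors was also compared, as a description of the same values. Cxcl12 was 1.59 ± 0.35 times the CPM of Cxcr4 in responders (SD, n = 6) and 0.78 ± 0.18 times in non-responders (n = 4). All 6 responders, at 1.10 to 1.95, were above all 4 non-responders, at 0.55 to 0.93. Relative to Ackr3 the ratios were 1.09 to 2.47 and 0.79 to 1.18, which overlapped. Cx3cl1 was 3.43 ± 0.60 times the CPM of Cx3cr1 in responders and 3.21 ± 0.93 times in non-responders, and the groups overlapped. Ccr1 relative to Ccr2 was 1.82 ± 0.38 and 2.12 ± 0.17, and these groups overlapped as well.

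Because Ptprc differed between the groups, each gene was also expressed relative to it on the log2 scale. The difference between groups (responders minus non-responders) was then -0.01 for Ccr2, -0.08 for Ccrl2, -0.25 for Ccr1 and Cx3cl1, -0.23 for Ackr3, -0.36 for Cx3cr1, -0.41 for Cxcr4 and -0.84 for Ccr6. For Cxcl12 it was 0.62. The groups overlapped for each of the 9 genes on this scale. Ccr2 per Ptprc was nearly the same in the 4 non-responders, at -2.57 to -2.45, and ranged from -2.98 to -2.29 in responders. Relative to the mean of the 8 macrophage markers, the groups were separate for Cxcl12 (-2.42 to -1.85 in responders and -3.32 to -2.54 in non-responders) and overlapped for the other 8 genes. With Ptprc as a covariate in the edgeR fit, the log2 fold change of Cxcl12 was 0.87 and with the macrophage markers 0.84. The sign with the Ptprc covariate differed from the subtraction for Cx3cr1 (0.47), Ackr3 (0.48), Cx3cl1 (0.24), Ccr1 (0.03) and Ccr6 (0.01). It stayed negative for Ccr2 (-0.01), Ccrl2 (-0.06) and Cxcr4 (-0.03), so the direction relative to Ptprc depends on the method for several genes. No gene of the whole table passed in either covariate fit, while 845 and 1053 genes were at an unadjusted p under 0.05.

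**Figure D3:**
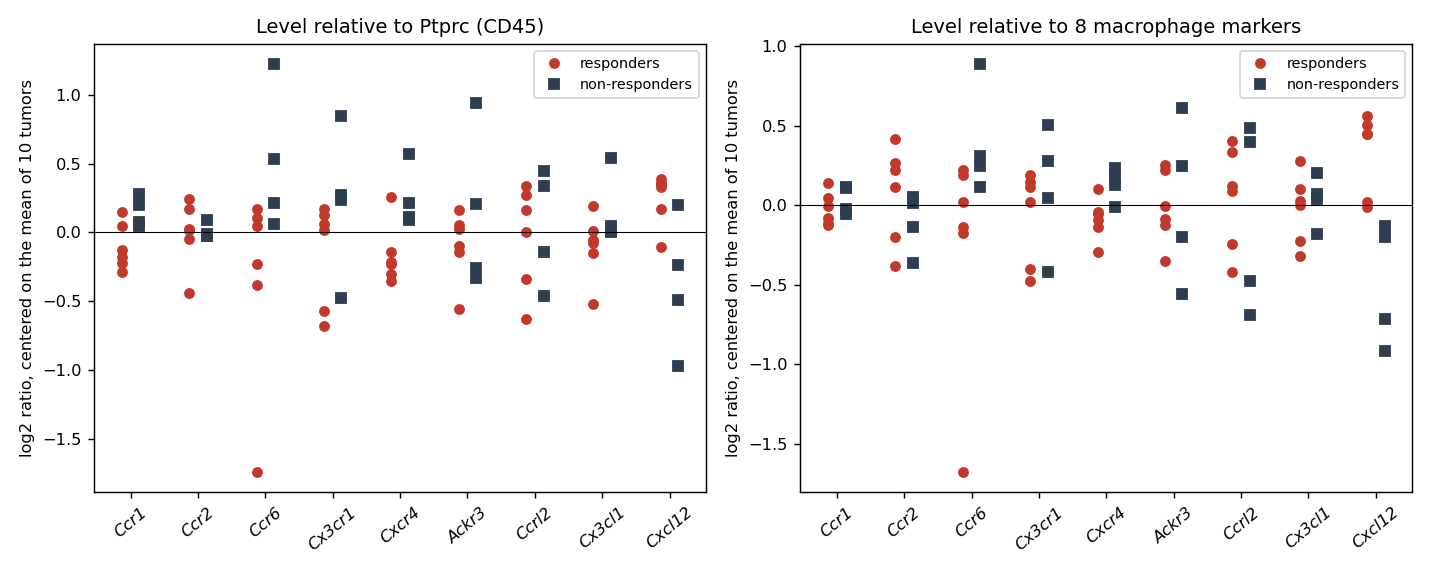
Log2 level of each gene relative to Ptprc (left) or to the mean of 8 macrophage markers (right), centered on the mean of the 10 tumors, with responders as red circles and non-responders as dark squares. Relative to Ptprc all 9 genes overlap between groups, and relative to the macrophage markers the groups are separate for Cxcl12.

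Markers of other leukocytes moved unevenly beside these receptors. Of the classical monocyte markers, 1 of 5 tested (Ly6c2) was called higher and 2 were higher at an unadjusted p under 0.05, with summed levels of 4504 to 6716 against 5188 to 8159 CPM, most of which is Fn1, the gene of fibronectin. Of the patrolling monocyte markers, 1 of 5 (Treml4) was called, at 258 to 293 against 263 to 290 CPM. At an unadjusted p under 0.05, 3 of these 5 were higher and 1 was lower (Ace, log2 fold change -0.43, edgeR adjusted p = 0.0834), and DESeq2 called 2 higher and 1 lower. For NK cells 1 of 4 tested (Klre1) was called, at 20.3 to 42.8 against 6.82 to 18.1 CPM, with 4 higher at an unadjusted p under 0.05, 3 called by DESeq2 and 0 by limma-voom. Of 6 T cell markers, with sums of 114 to 260 against 69.8 to 131 CPM, edgeR called 0, although 5 were higher at an unadjusted p under 0.05 and DESeq2 called 5. For 4 B cell markers (4.52 to 9.65 against 3.03 to 5.30 CPM) edgeR called 0, with 2 at an unadjusted p under 0.05 and 2 called by DESeq2. Among 6 dendritic cell markers (46.3 to 69.4 against 52.2 to 62.9 CPM) and 5 neutrophil markers (69.2 to 139 against 52.5 to 112 CPM), edgeR called 0 with 1 in each list at an unadjusted p under 0.05, and DESeq2 called 1 and 0. The 1 keratinocyte marker tested was not called or below that p (list sum 2.77 to 3.89 against 2.69 to 9.11 CPM). The defining neutrophil marker Ly6g was near 0 in every tumor, and Lor, a keratinocyte marker, was at 0 in each responder. The part of these cells in the receptor levels was not tested beyond the covariates above.

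Ligands of the member receptors were described from a list of 13 genes, of which 12 were tested. Among these, 1 rose, 1 fell and 10 did not pass, and the median log2 fold change was 0.46. The background over all genes tested was 4.71% called higher and 3.35% lower, with a median of -0.01. This list and those of other receptors and signaling genes were chosen with earlier results of these data known. Rarres2, the gene of chemerin, which CCRL2 presents, rose from 95.7 ± 14.7 CPM in non-responders to 138 ± 23.03 CPM in responders (log2 fold change 0.53, edgeR adjusted p = 0.0387). Ccl12, a mouse ligand of CCR2, fell, with 44.4 to 57.3 CPM in responders below the 59.8 to 70.7 CPM of non-responders (log2 fold change -0.34, edgeR adjusted p = 0.0310). The principal CCR2 ligand Ccl2 was at 98.0 ± 20.8 against 74.4 ± 15.3 CPM (0.40, edgeR adjusted p = 0.160), and Ccl7, which binds CCR1 and CCR2, was at 30.5 ± 6.24 against 27.0 ± 2.88 CPM (0.17, 0.488). Of the listed ligands, Ccl8 was the most abundant in CPM at 500 ± 157 against 277 ± 105 (0.85, edgeR adjusted p = 0.0882).

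The inflammatory chemokines Ccl3 and Ccl5, which bind CCR1, and the related Ccl4 gave positive estimates that did not pass. The values were Ccl3 (log2 fold change 0.71, edgeR adjusted p = 0.0607), Ccl4 (0.80, 0.0783) and Ccl5 (0.91, 0.0695), and in each of them 5 of 6 responders exceeded the highest non-responder. The CCR1 ligands Ccl6 (0.26) and Ccl9 (-0.13) overlapped widely between groups. Cxcl11, which binds CXCR3 and ACKR3, had an estimate of 0.95 (edgeR adjusted p = 0.0881), and Mif, an alternative ligand of CXCR4, of 0.20 (0.185). Ccl20, the ligand of CCR6, had 0 counts in all 10 tumors, which allows up to 0.08 to 0.13 CPM per tumor (3 counts, for counting error alone).

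Of 18 other chemokine receptors 15 were tested, 4 were called higher and 0 lower, and the median log2 fold change was 0.23. Counts of lower genes were 0 also at an unadjusted p under 0.05 and by DESeq2 or limma-voom. These counts stand beside 4.71% higher and 3.35% lower over all genes tested, with a median of -0.01. Xcr1, a marker of cross-presenting dendritic cells, rose from 2.22 ± 0.68 to 6.13 ± 1.69 CPM (log2 fold change 1.46, edgeR adjusted p = 0.0222). Cxcr6, carried by activated T cells, rose as well (log2 fold change 2.15, edgeR adjusted p = 0.0469), although responder 4 overlapped with the non-responders. Cmklr1, the chemerin receptor, rose from 43.4 ± 3.62 to 57.3 ± 5.92 CPM (log2 fold change 0.40, edgeR adjusted p = 0.0271). Cxcr3 was separate between groups without passing (log2 fold change 0.73, edgeR adjusted p = 0.0791). The chemerin gene and its signaling receptor passed, and the presenting receptor Ccrl2 did not. The estimate of Ccrl2 (0.44 ± 0.26 SE) was of similar size to those of Cmklr1 (0.40 ± 0.08) and Rarres2 (0.53 ± 0.13). Its SE was larger, so a difference among these genes is not shown.

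Of 19 genes of chemokine processing and receptor signaling, all were tested, and 7 were called higher and 0 lower. The number lower was 0 also at an unadjusted p under 0.05 and by DESeq2 or limma-voom. Positive estimates numbered 18, and the median log2 fold change was 0.31. Over all genes tested, 4.71% were called higher and 3.35% lower, 48.2% of estimates were positive and the median was -0.01. Adam17, the inducible sheddase of CX3CL1, rose from 135 ± 8.996 to 156 ± 6.996 CPM (log2 fold change 0.21, edgeR adjusted p = 0.0372), whereas Adam10, the constitutive sheddase, did not pass (0.05, 0.521). Ctss, the cysteine protease cathepsin S, had the largest estimate (0.79, edgeR adjusted p = 0.0401). The receptor kinase gene Grk2 (log2 fold change 0.19, edgeR adjusted p = 0.0432) and the arrestin genes Arrb1 (0.25, 0.0448) and Arrb2 (0.43, 0.0330) rose, as did Dock2 (0.57, 0.0350), which drives leukocyte migration through Rac, and Pik3cg (0.36, 0.0344), the kinase that chemokine receptors engage in leukocytes. Grk3 was separate between groups without passing (0.40, edgeR adjusted p = 0.0557).

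**Figure D4:**
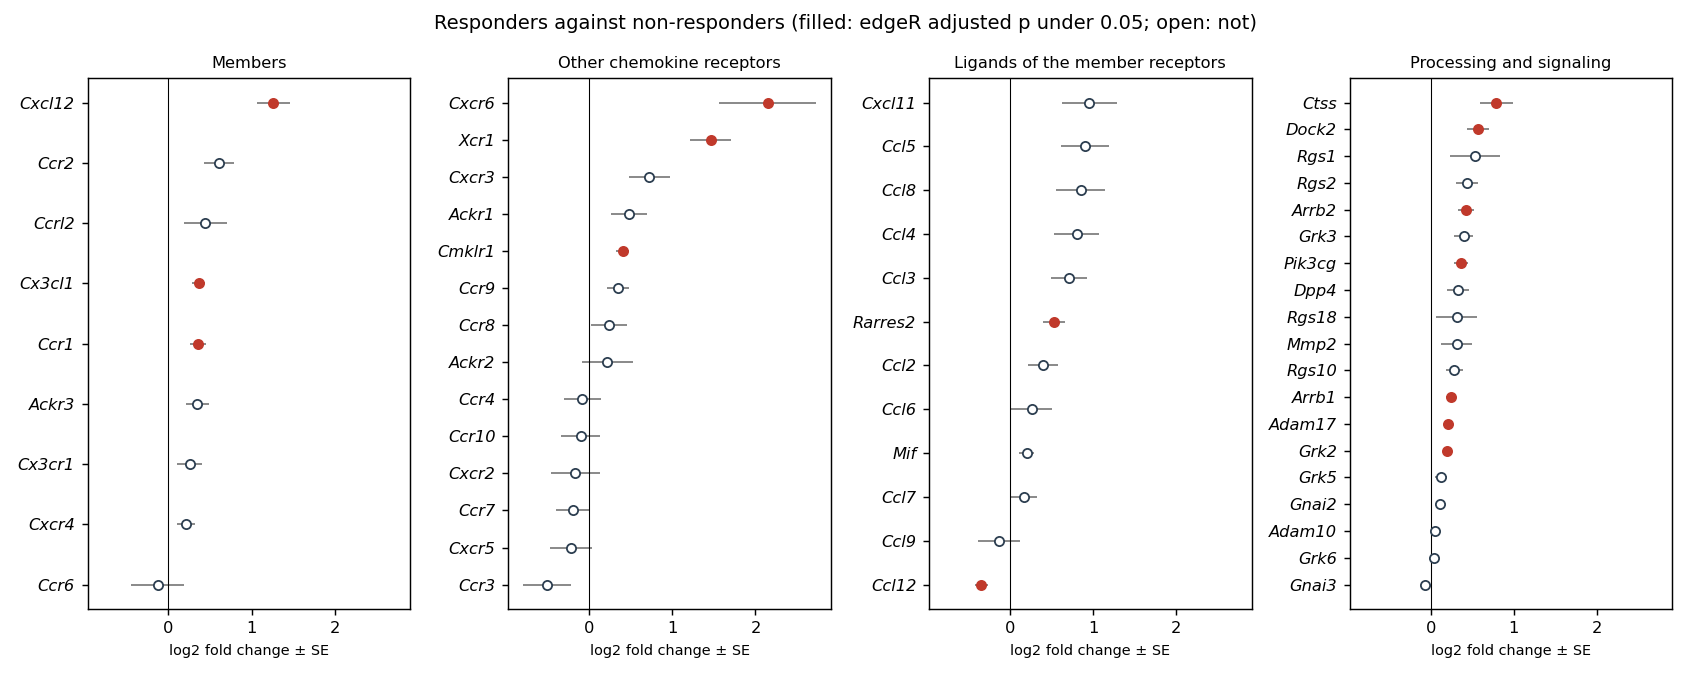
Log2 fold change ± SE (horizontal axis) of responders over non-responders for the 9 members and the 3 related lists, 1 row per gene shown, with filled points for an edgeR adjusted p under 0.05. Filled points number 3 of 9 members, 3 of the 14 other receptors shown, 2 of 12 ligands (Ccl12 lies below 0) and 7 of 19 processing and signaling genes.

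Likeness of profiles was measured as the root mean square difference in log2 CPM over the 10 tumors, after each gene was centered on its own mean, among genes of at least 1 CPM on average. Ccr1 was most like Fuca2 (0.04), Cd86 (0.06) and Vav3 (0.06), which was the closest set of any member. Ccr2 was nearest to Mmp25, Atp2a3 (both 0.11) and Naaa (0.12), Cxcr4 to Rtn4ip1 (0.07), Zscan26 and Arsg (both 0.09), and Cx3cl1 to Tor1aip1, Plek and Exoc6 (each 0.09). Ackr3 was nearest to Hivep3 (0.11), Amotl2 (0.14) and Creb5 (0.15), and Cx3cr1 to Gm5900 (0.13), Mrpl48-ps (0.14) and Gm6758 (0.17). Ccrl2 was nearest to Ifit1bl2 (0.12), Rsad2 (0.14) and Tent5c (0.18), and Cxcl12 to Sfrp1 (0.19), Mgst1 (0.21) and Irak3 (0.23). For Ccr6, the nearest were Eva1c (0.29), Adgrg6 (0.31) and Vash1 (0.32). Among the members, Ccr1 and Cxcr4 were the most alike (0.13), and Ccr6 and Cxcl12 the least (0.94). The distance is not scaled to how much a gene varies, so it tends to be small for genes that vary little. Root mean squares of the members around their own means ran from 0.19 for Cxcr4 to 0.68 for Cxcl12, with Ccr1 at 0.23 and Ccr6 at 0.51. Genes that share libraries share their errors, and these distances are a description without a test.

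**Figure D5:**
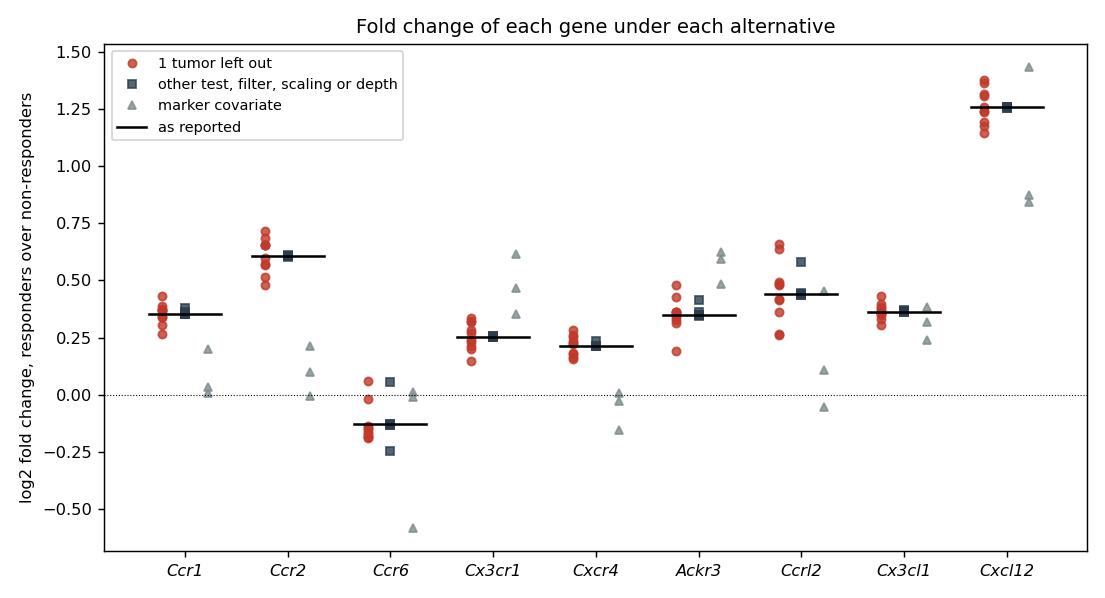
Log2 fold change of each gene (vertical axis) as reported (black line), with 1 tumor left out (red circles), under another test, filter, scaling or depth (dark squares) and with a marker covariate (gray triangles). Cxcl12 stays between 0.84 and 1.44 throughout, Ccr1 falls to 0.01 with the macrophage covariate, and Ccr6 lies on both sides of 0.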

How the data were processed

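PolyA RNA of 10 resected CT26 tumors (6 responders, 4 non-responders, by the response in the labels) was sequenced as paired ends. The authors checked reads with FastQC, estimated transcript abundance with Kallisto on mm10 (GRCm38) and used tximport for gene totals; the deposited values are estimated counts, not scaled to depth, and 45.1% of them are fractional. Annotation release, tximport option and strand were not given in the sources used here. Pseudoalignment can split reads between genes with shared sequence.

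Counts were rounded and tested with edgeR 4.0.16 in R 4.3.3: TMM, filterByExpr (minimum count 10, minimum total 15; at most 0.0716% of a tumor's counts removed), glmQLFit and glmQLFTest, two-sided, Benjamini-Hochberg over 16041 genes, threshold 0.05. SE is the log2 fold change over the square root of F. A prior count of 2 entered log2 CPM. The labels gave no batch and the tumor numbers pair nothing, so no block was fitted. Alternatives were RLE factors, DESeq2 1.42.0, limma-voom (limma 3.58.1), no filter, the CPM filter of the study, thinning to the shallowest library, each tumor left out, and Ptprc or macrophage markers as a covariate; an adipocyte covariate was added after the data were seen. The edgeR steps were also run on simulated counts with the same spread for every gene and larger fold changes than those of Ccr1 and Cx3cl1. That run does not bear on calls of this size.

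The members and lists were chosen with earlier results of these data known. Named genes are the members, list genes that passed or did not overlap between groups, every ligand of a member receptor, and the 3 nearest profiles per member; 1 result that this rule names is not reported here, and markers were named beyond it after their values were seen. Lengths and coordinates come from GENCODE M21, which matched 35912 identifiers and left 97 unmatched, and promoters, found for 9 of 9 members, from RefSeq. Rows without a gene name (9633, with 1.04% to 1.23% of counts) carried an identifier and stayed in the totals. Each tumor came from a separate mouse.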

Additional observations from a re-analysis of the deposited data

Results flagged for a closer look

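Of 18 member-by-group sets examined for a sample far from the others, 1 stood out, where chance would give about 0.9. It was Ccr6 in responder 1, whose gap to the nearest responder was 0.8804 of the range of the 6 responders in log2 CPM. That tumor had 5 estimated counts of Ccr6 (0.17 CPM), against 0.62 to 0.73 CPM in the other 5 responders, and was neither the shallowest nor the deepest library of its group. Without it the log2 fold change of Ccr6 was 0.06 (edgeR adjusted p = 0.875).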

How the results depend on the processing

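The 3 member calls were made under RLE factors, limma-voom, no filter, the CPM filter of the study and thinning, and DESeq2 made 4. With the Ptprc, macrophage or adipocyte covariate, edgeR called 0 members, 0 other receptors, 0 ligands, 0 signaling genes and 0 of all genes. At an unadjusted p under 0.05 were 1, 3 and 4 members, and 845, 1053 and 1744 of all genes. The added term leaves fewer degrees of freedom, and estimates moved both ways (with Ptprc, Ccr1 from 0.35 to 0.03 and Cx3cr1 from 0.25 to 0.47). Ptprc and 5 of 8 macrophage markers were themselves called higher in responders, so these covariates are not independent of response. The cause of the lost calls was not tested. DESeq2 called 2584 genes in all and 6 ligands. Thinning moved the split of all calls from 756 higher and 537 lower to 778 and 353, and no filter to 632 and 299. With 1 tumor left out, calls ranged from 0 to 1897 over all genes, 0 to 4 over members, other receptors and ligands, and 0 to 7 over signaling genes. Members called were 0 without responder 3, non-responder 1 or non-responder 4, 1 without responder 2 or non-responder 3, and 4 without non-responder 2. Calls in each of the 3 related lists were also 0 without responder 3, non-responder 1 or non-responder 4, those of signaling genes 0 without responder 1 or 2 and those of ligands 0 without responder 5. The smaller designs have fewer samples; without non-responder 4 edgeR called 0 genes, with 4106 at an unadjusted p under 0.05. Estimates changed sign for Ccr2 (-0.0078), Ccrl2 (-0.055) and Cxcr4 (-0.029) with Ptprc, for Cxcr4 with macrophage markers (-0.15), and for Ccr6 with thinning (0.053), with Ptprc (0.012) and when responder 1 was left out (leave-one-out range -0.192 to 0.057). No paired analysis was possible because the labels give no shared replicate numbers. Depth limits Ccr6, with 5 to 26.6 counts per tumor.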
